A study of Mus musculus with 18 samples.

Results

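The immediate early and stress response genes Fos, Fosb, Jun, Junb, Egr1, Atf3, Ier2 and Dusp1 were followed across mouse mammary tumours driven by an ERBB2 (neu) transgene. These 8 members were taken by gene symbol from the 19938 genes measured, and each was read by 1 probe set of a whole-transcript array, so no member had a choice of probe sets. The mice descended from FVB/N-Tg(MMTVneu)202Mul/J, in which a mammary tumour virus promoter drives ErbB2, and either lacked the transcription factor Snai2 (KO, from the strain B6;129S1-Snai2tm2Grid/J) or kept it (WT). All groups are ERBB2+, and their ages and further background are not known here. Snai2 deficiency is labelled for the whole mouse, so host cells of the tumour lack it too. The WT mice all had metastasis and were nulliparous (4 tumours) or parous (4). The KO groups were parous with metastasis (3 arrays), parous without metastasis (3), nulliparous without metastasis (3) and a lone nulliparous mouse with metastasis (1). Arrays 2 and 3 of parous KO mice with metastasis were nearly identical (SD of their log2 difference over bright genes 0.102, next closest pair 0.285), so their mean counts as 1 sample. The tests rest on 17 samples, with 2 in that group. No WT mouse was free of metastasis, so the direct comparison of parity in WT holds metastasis constant, while the KO comparison of parity was made in mice without it.

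Immediate early genes are transcribed within minutes of a growth factor, cytokine or stress signal, without new protein synthesis, through kinases of the MAP kinase family that act on factors already bound at their promoters. Fos, Fosb, Jun and Junb encode subunits of the AP-1 transcription factor, Egr1 a zinc finger factor, Atf3 a stress-induced factor of the ATF/CREB family that can pair with Jun proteins, Ier2 a small nuclear protein, and Dusp1 a phosphatase that inactivates MAP kinases. ERBB2 signals through the same kinases in mammary epithelium. The same transcripts are also known to rise while tissue is excised and handled.

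All values are log2 expression values as deposited, so a difference of 1 is a 2-fold change. Snai2 lay between 6.28 and 6.79 in the 9 KO samples and between 6.68 and 7.09 in the 8 WT samples, so the ranges of this dim gene overlapped. The position of its probes relative to the deletion is unknown, so this level is no check of the genotype. The luminal epithelial markers Epcam (12.62 to 12.83) and Krt8 (12.86 to 13.66) were bright in every tumour, and Krt19, another luminal keratin, was dim in most (median 6.64). The labels call the arrays biological replicates, and these are bulk tumours, in which fewer cells of a type and less RNA per cell cannot be told apart.

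The promoters of the members are shown because the cyclic AMP response element core TGACG, a site of CREB and ATF factors, recurs in them, and because several members varied together across tumours. RefSeq windows (GRCm38.p6) of the 150 bases before the start of the gene were found for 6 of 8 members. That of Fosb overlaps the annotated gene and is not shown; the others are printed on the strand of the gene, with TGACG on either strand and TGACATCA in capitals.
Fos, chr12:85473740-85473889, plus strand: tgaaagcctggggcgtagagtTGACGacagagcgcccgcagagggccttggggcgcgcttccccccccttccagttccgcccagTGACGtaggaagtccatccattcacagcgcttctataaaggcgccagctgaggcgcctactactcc
Jun, chr4:95052223-95052372, minus strand: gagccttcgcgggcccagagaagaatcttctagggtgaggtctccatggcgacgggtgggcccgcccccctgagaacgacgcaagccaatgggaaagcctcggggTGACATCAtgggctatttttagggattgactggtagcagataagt
Junb, chr8:84978749-84978898, minus strand: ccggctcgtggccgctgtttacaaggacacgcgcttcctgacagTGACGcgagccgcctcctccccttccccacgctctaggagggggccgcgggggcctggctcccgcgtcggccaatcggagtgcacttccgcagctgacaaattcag
Atf3, chr1:191183334-191183483, minus strand: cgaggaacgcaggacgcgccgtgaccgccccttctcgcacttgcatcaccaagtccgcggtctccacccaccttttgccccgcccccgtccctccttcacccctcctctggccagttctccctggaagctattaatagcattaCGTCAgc
Dusp1, chr17:26508473-26508622, minus strand: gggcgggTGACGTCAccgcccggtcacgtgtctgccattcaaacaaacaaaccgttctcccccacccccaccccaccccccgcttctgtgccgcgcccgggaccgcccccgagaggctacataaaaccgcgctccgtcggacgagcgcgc

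TGACG was found on either strand in 5 of the 6 windows, against 13.3% of 32851 RefSeq windows of the same length. It was singled out because it recurs in these windows, so the count is a description and no test. The RefSeq windows were not matched for base content. In Fos TGACG lay at 129 and 66 bases upstream, in Junb at 106, in Atf3 on the other strand at 7, and in Dusp1 at 143 inside the palindrome that carries it on both strands. The Fosb match, at 60 in its window, fell in the part that overlaps the annotated gene, so it is not upstream of that gene. Jun had TGACATCA instead, 45 bases upstream, a sequence present in 2.32% of all windows. The AP-1 motif TGANTCA (4.24% of windows) and the CArG box of serum response factor (0.916%) were in 0 of the 6 windows, and TATAAA (7.57%) was in Fos alone, 33 bases upstream. These are matches of letters within the window and say nothing of binding in these tumours. Sequence farther upstream lay outside the windows, and no window was found for Egr1 and Ier2. A motif missing from the windows is therefore not shown to be missing from the control regions of these genes.

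**Figure D1:**
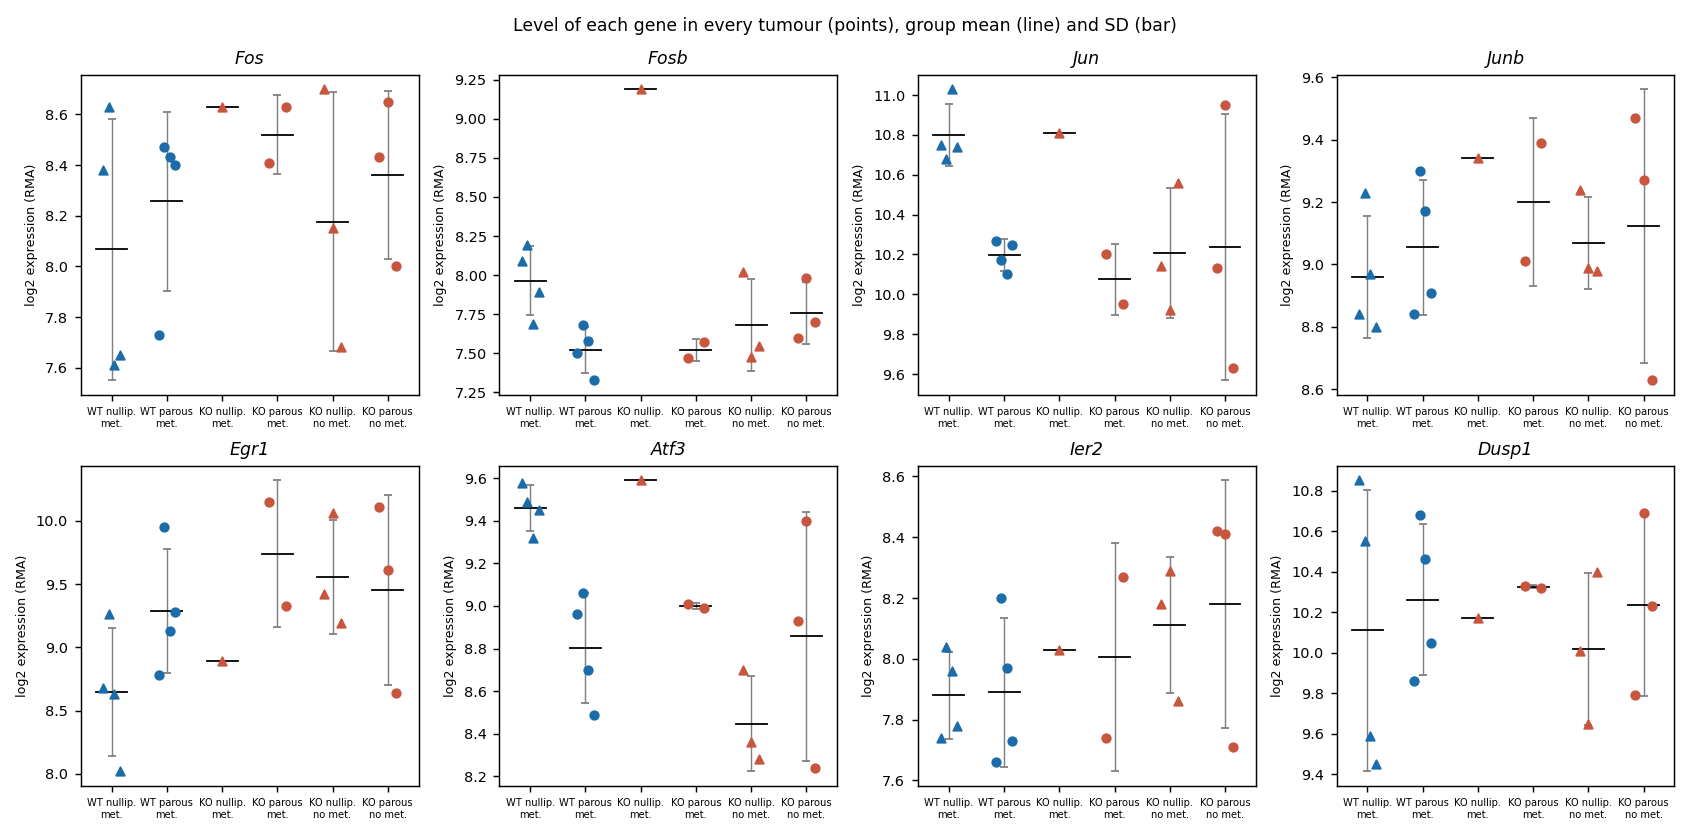
Level of each member in every tumour, 1 panel per gene; the vertical axis is log2 expression (RMA), points are samples (blue WT, red KO, triangles nulliparous, circles parous), lines group means and bars the SD where a group has more than 1 sample. Jun and Atf3 in the 4 WT nulliparous tumours lie above all 4 WT parous tumours, and the Fosb value of the lone KO nulliparous tumour with metastasis (9.19) lies far above all others.

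In WT mice with metastasis, Jun, Atf3 and Fosb were lower in every parous tumour than in every nulliparous tumour, while the other 5 members overlapped between the groups. Of 8 members 0 passed limma at an adjusted p under 0.05, against 2.40% of all genes, and 3 had an unadjusted p under 0.05, against 16.2% of all genes. The 3 members that did not overlap were all lower in parous mice, against 7.63% of all genes lower and 4.98% higher with no overlap. Of all genes 1.86% passed as lower and 0.542% as higher.

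Jun stood at 10.75, 10.68, 11.03 and 10.74 in WT nulliparous tumours and at 10.27, 10.17, 10.10 and 10.25 in WT parous tumours. The groups were tight and separate, with means of 10.80 ± 0.16 (SD, n = 4) and 10.20 ± 0.08 (SD, n = 4). The log2 difference, parous minus nulliparous, was -0.60 (SE 0.22, 95% interval -1.08 to -0.13), which is 1.52-fold lower, with a limma adjusted p of 0.182. Jun lies on chromosome 4, whose 1154 tested genes had a median difference of -0.23 in this comparison, with 148 of them lower at the threshold. Among the 20 tested genes nearest to Jun, 11 lay below 0, the median was -0.01 and 0 passed; the part of the chromosome in the value of Jun was not tested.

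Atf3 stood at 9.58, 9.49, 9.32 and 9.45 in WT nulliparous and at 8.96, 9.06, 8.70 and 8.49 in WT parous tumours. All nulliparous values again lay above all parous values, with means of 9.46 ± 0.11 (SD, n = 4) and 8.80 ± 0.26 (SD, n = 4). The difference was -0.66 (SE 0.20, 95% interval -1.09 to -0.23), or 1.58-fold lower, with an adjusted p of 0.111 by limma. Chromosome 1, which carries Atf3, had a median difference of 0.01, and chromosome 7, which carries Fosb, of -0.01. Among the 20 tested genes nearest to Atf3, 9 lay below 0, with a median of 0.005. Nearest to Fosb 16 of 20 did, with a median of -0.08, and 0 passed beside either gene. The part of location in these values was not tested.

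Fosb stood at 8.09, 8.19, 7.69 and 7.89 in WT nulliparous and at 7.50, 7.68, 7.58 and 7.33 in WT parous tumours. The groups nearly touched, at 7.69 in nulliparous replicate 3 and 7.68 in parous replicate 2. The difference was -0.44 (SE 0.14, 95% interval -0.74 to -0.14), or 1.36-fold lower, with an adjusted p of 0.12 by limma.

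Whether these members passed depended on which samples set the spread, which all 6 groups share in the fit. With the 2 WT groups alone in the fit, Jun (limma adjusted p = 0.0112) and Atf3 (0.0298) passed and Fosb did not (0.089). Without replicate 2 of parous KO mice lacking metastasis Jun (0.0383) and Atf3 (0.0389) passed, and without replicate 3 of that group Atf3 passed (0.0359). With array weights all 3 passed, at 0.0465 for Jun, 0.0287 for Atf3 and 0.0304 for Fosb. Of all 19938 genes, 478 passed in the main fit, 878 with the 2 WT groups alone and 1718 with array weights. Without the named KO replicates 2 and 3 they numbered 770 and 435. No member passed in the other settings. The limma adjusted p of Jun was 0.279 with the replicate number as a block, and 0.353 without WT parous replicate 3.

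**Figure D2:**
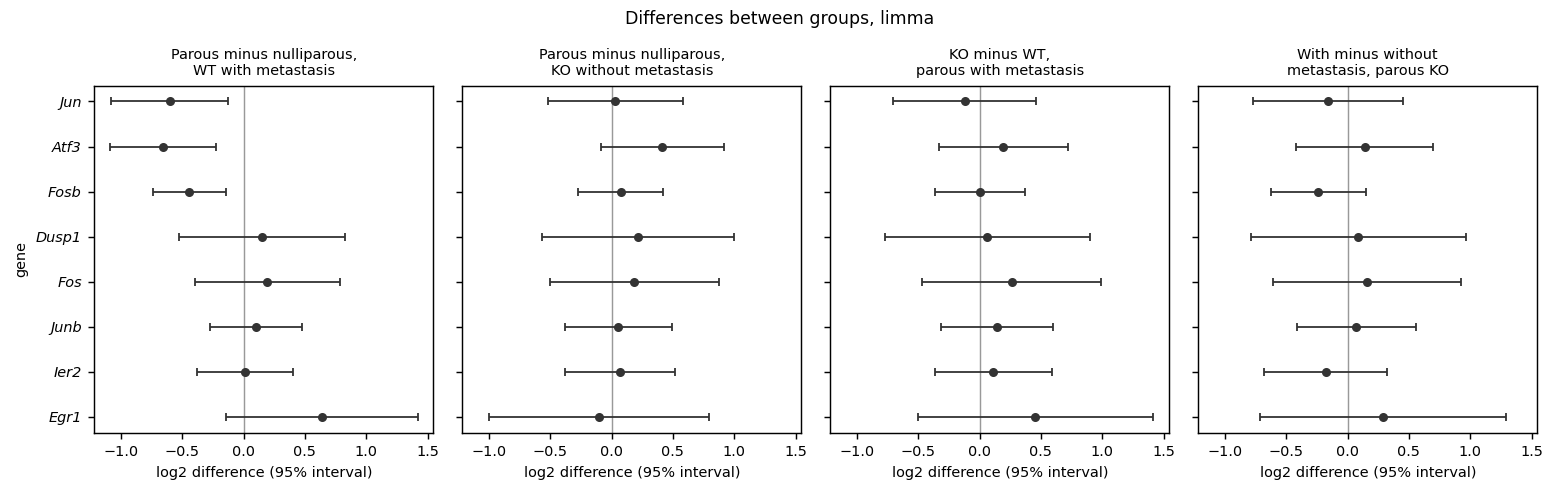
Log2 differences of the 8 members in 4 comparisons, with 95% intervals from limma; the horizontal axis is the log2 difference and the line marks 0. In WT mice the intervals of Jun, Atf3 and Fosb lie below 0, between -1.09 and -0.13, and every interval in the other 3 comparisons spans 0.

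The other 5 members overlapped between nulliparous and parous WT tumours. Egr1 had its lowest value of all tumours in WT nulliparous mice: it stood at 8.68, 9.26, 8.63 and 8.02 there and at 8.78, 9.95, 9.13 and 9.28 in WT parous mice. The groups overlapped, and the difference of 0.64 (SE 0.36, 95% interval -0.14 to 1.42) had a limma adjusted p of 0.425. Fos stood at 8.38, 8.63, 7.61 and 7.65 in nulliparous and at 7.73, 8.47, 8.43 and 8.40 in parous WT tumours. Both Fos groups thus held low and high tumours, and the difference was 0.19 (SE 0.28, adjusted p = 0.806 by limma). Junb ranged from 8.80 to 9.23 and from 8.84 to 9.30 in the same groups (difference 0.10, 95% interval -0.28 to 0.47). Ier2 ranged from 7.74 to 8.04 and from 7.66 to 8.20 (difference 0.01, 95% interval -0.38 to 0.40). For these last members the intervals exclude a 2-fold change in either direction. Dusp1 was spread from 9.45 to 10.85 in nulliparous and from 9.86 to 10.68 in parous WT tumours, with a difference of 0.15 (SE 0.32, adjusted p = 0.883 by limma).

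Markers of several other cell types tended to be lower in parous WT tumours, and their part in the values of Jun, Atf3 and Fosb was not tested. All 12 of 12 macrophage markers lay below 0, with a median difference of -0.58; the log2 of their summed level ran from 13.76 to 14.14 in nulliparous and from 13.04 to 14.17 in parous tumours. The fibroblast and matrix genes (12 of 12 below 0, median -0.63) ran from 13.58 to 14.60 and from 12.17 to 14.46. The T and NK cell markers (11 of 11 below 0, median -0.40) ran from 10.04 to 11.66 and from 9.76 to 10.01; 2 of them, Nkg7 and Ncr1, passed and fell. Adipocyte markers were below 0 in 10 of 10 (12.31 to 13.79 and 11.67 to 12.56), where Lipe fell, and muscle genes in 12 of 12 (10.83 to 14.95 and 10.88 to 12.21). Endothelial markers were below 0 in 11 of 12, B and plasma cell markers in 7 of 7, and neutrophil and basal markers in 5 of 10 and 4 of 8. WT nulliparous replicate 1 held the highest muscle level, and without it Jun differed by -0.62, Atf3 by -0.62 and Fosb by -0.40. Hypoxia and glycolysis genes lay above 0 in 10 of 12, with summed levels of 15.07 to 16.06 in nulliparous and 15.60 to 15.82 in parous tumours. Luminal markers were below 0 in 5 of 12 (15.41 to 15.62 and 15.51 to 15.71). The table gives no detection call, so no marker can be called absent.

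In KO mice without metastasis no member passed for parity. Of 8 members 0 passed limma and 0 had an unadjusted p under 0.05, against 0% and 3.29% of all genes (655 genes). The groups overlapped in all 8, while 6.04% of all genes had no overlap (2.90% lower, 3.14% higher). Jun stood at 10.14, 9.92 and 10.56 in nulliparous and at 10.13, 10.95 and 9.63 in parous KO tumours, so that the parous group held both the second highest and the lowest of all 17 values. The difference was 0.03 (95% interval -0.52 to 0.58). That interval uses the spread shared by all 6 groups. The Jun SD was 0.67 in these parous and 0.33 in these nulliparous KO tumours, against 0.08 in WT parous tumours. A 2-fold change is therefore not excluded by the KO tumours themselves. Atf3 stood at 8.70, 8.36 and 8.28 in nulliparous and at 8.93, 9.40 and 8.24 in parous KO tumours, a difference of 0.41 (95% interval -0.08 to 0.91). It was 0.14 without parous replicate 2, 0.72 without parous replicate 3 and 0.00 with array weights. Fosb differed by 0.07 (95% interval -0.27 to 0.42). The remaining members lay between -0.11 for Egr1 and 0.22 for Dusp1.

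Whether parity went with different changes in the KO and WT comparisons was tested as KO minus WT; metastasis status differs along with genotype there. Of 8 members 0 passed limma, and 2 had an unadjusted p under 0.05, against 0% and 9.64% of all genes (1922 genes). Atf3 had the largest difference of the members, 1.07 (SE 0.31, 95% interval 0.41 to 1.73), with an unadjusted p of 0.00383 and an adjusted p of 0.347 by limma. Fosb stood at 0.52 (SE 0.21, adjusted p = 0.457) and Jun at 0.63 (SE 0.34, adjusted p = 0.572). The value of Jun was 0.27 without parous KO replicate 2, 0.93 without parous KO replicate 3 and 0.16 with array weights; that of Atf3 was 0.80, 1.38 and 0.65. These values use the same WT tumours as the comparison within WT and are no second line of evidence.

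Between KO and WT tumours of parous mice with metastasis, 2 samples against 4, no member passed. By limma 0 of 8 passed and 0 had an unadjusted p under 0.05, against 0% and 5.73% of all genes (1142 genes). The groups overlapped in all 8 members, while 17.9% of all genes had no overlap (11.7% lower, 6.27% higher). The differences, KO minus WT, lay between -0.12 for Jun and 0.45 for Egr1, whose interval of -0.50 to 1.41 was wide. Egr1 was 10.15 and 9.33 in the KO samples and 8.78 to 9.95 in WT. In 7 of 8 members the 95% interval, which uses the spread shared by all 6 groups, excluded a 2-fold change. The comparison shares its WT parous tumours with that of parity in WT.

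Parous KO tumours with and without metastasis did not differ in the members at the threshold either. By limma 0 of 8 passed and 0 had an unadjusted p under 0.05, against 0% and 4.04% of all genes (805 genes). Fosb was 7.47 and 7.57 with metastasis and 7.60, 7.98 and 7.70 without; these groups did not overlap, as in 14.4% of all genes (4.41% higher, the rest lower). Its difference was -0.24 (SE 0.18, adjusted p = 0.967 by limma). The others lay between -0.18 for Ier2 and 0.29 for Egr1, and their groups overlapped.

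The fit with genotype, parity and metastasis together used all 17 samples. For parity 0 of 8 members passed limma, against 0% of all genes, and 2 had an unadjusted p under 0.05, against 12.7% of all genes: Fosb at -0.45 (SE 0.17) and Jun at -0.39 (SE 0.16), both lower in parous mice. For metastasis Atf3 stood at 0.59 (SE 0.27, adjusted p = 0.983), the only member with an unadjusted p under 0.05 there, against 5.01% of all genes. For genotype the members lay between -0.11 for Jun and 0.42 for Egr1, and 0 had an unadjusted p under 0.05, against 4.44% of all genes. None of the 3 factors had a gene past the adjusted threshold in this fit (0%). Without replicate 2 of parous KO mice lacking metastasis Jun passed for parity, at -0.54 (limma adjusted p = 0.0283), and with array weights too (-0.54, adjusted p = 0.0258). Of all genes 337 and 781 passed for parity in those settings. The fit includes the lone KO nulliparous tumour with metastasis, which had the highest Fosb (9.19) and Atf3 (9.59) and weighs on their values. In direct comparisons Atf3 differed by 0.14 with metastasis among parous KO mice. Fosb differed with parity by -0.44 in WT and 0.07 in KO mice.

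**Figure D3:**
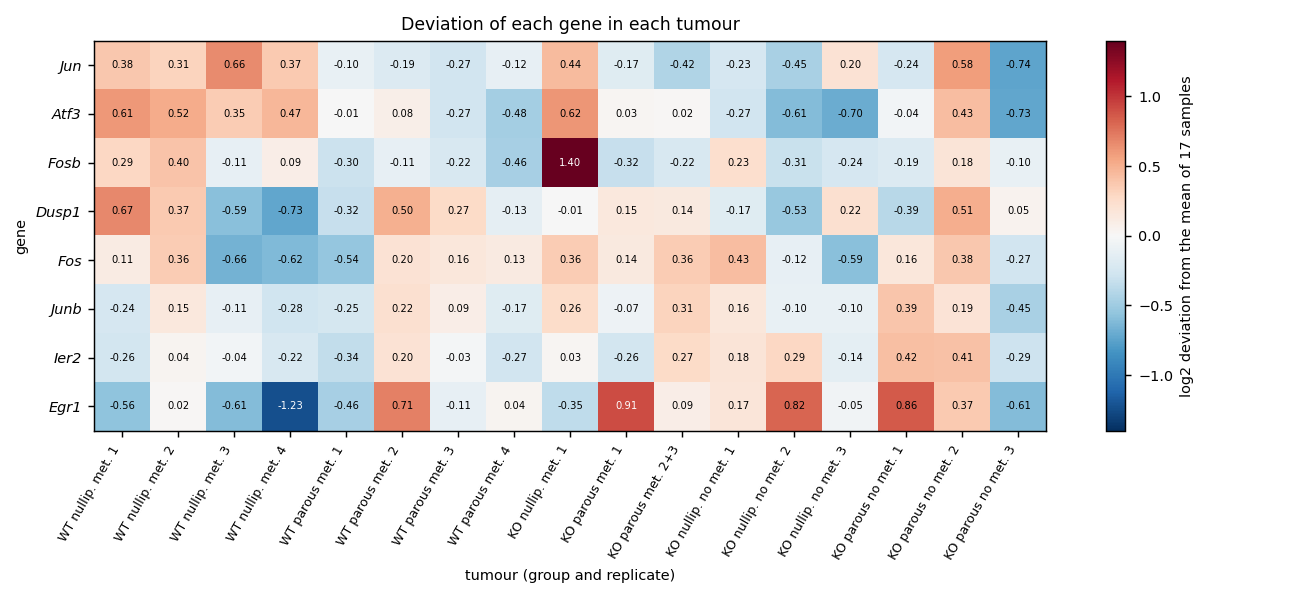
Deviation of each member (vertical axis) in each tumour (horizontal axis) from its mean over 17 samples, in log2 units; red is higher, blue lower. Parous KO replicate 2 without metastasis is above the mean in all 8 genes, and replicate 3 of the same group is below it in all but Dusp1.

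The spread between tumours of the same group was wide for several members. Egr1 had the widest range of the members, from 8.02 in WT nulliparous replicate 4 to 10.15 in parous KO replicate 1 with metastasis, a range of 2.14 on the log2 scale. Its SD within groups was 0.55, larger than in 95.4% of all genes, where the median was 0.15. The within-group SDs of the other members ran from 0.21 for Fosb to 0.48 for Dusp1, each above the median of all genes. The nearly identical arrays, which the labels call biological replicates and which may or may not share a source, differed by 0.16 in Fosb, 0.12 in Ier2, 0.10 in Atf3 and at most 0.03 in the other 5 members, against a median of 0.07 over all genes.

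The parous KO group without metastasis held tumours at both ends. Its replicate 2 was above the median of 17 samples in 8 of 8 members, with Jun at 10.95, Atf3 at 9.40, Dusp1 at 10.69 and Ier2 at 8.41. Its replicate 3 was above the median in 1 of 8 and had the lowest Jun (9.63), Junb (8.63) and Atf3 (8.24) of all tumours. The same replicate 2 had the highest summed level of macrophage markers (14.63) and of fibroblast and matrix genes (14.83) of all samples, against 13.27 and 13.23 in replicate 3. It was also the highest for endothelial (13.47, against 12.29), basal (12.51, against 11.27) and neutrophil markers. The part of these cells in the members' values was not tested.

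The lone KO nulliparous tumour with metastasis had Fosb at 9.19, against 8.19 for the next highest tumour. It also had the highest Atf3 (9.59), and Jun stood at 10.81, while Egr1 (8.89) was below its mean. Its summed level of B and plasma cell markers was 11.06, against 9.26 to 10.09 in the other samples, and macrophage markers stood at 14.06. With 1 sample in its group no test was made.

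Heat shock genes encode chaperones and are another readout of stress. The summed level of 13 heat shock genes was highest, at 15.12, in KO nulliparous replicate 3 without metastasis, where 2 of 8 members were above their median. It was lowest, at 14.60, in the lone KO nulliparous tumour with metastasis, where 6 of 8 members were. In parous KO replicate 2 without metastasis, with 8 of 8 members above the median, it was the second highest. In WT tumours it ran from 14.76 to 14.87 in nulliparous and from 14.77 to 14.93 in parous mice, so these groups overlapped.

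**Figure D4:**
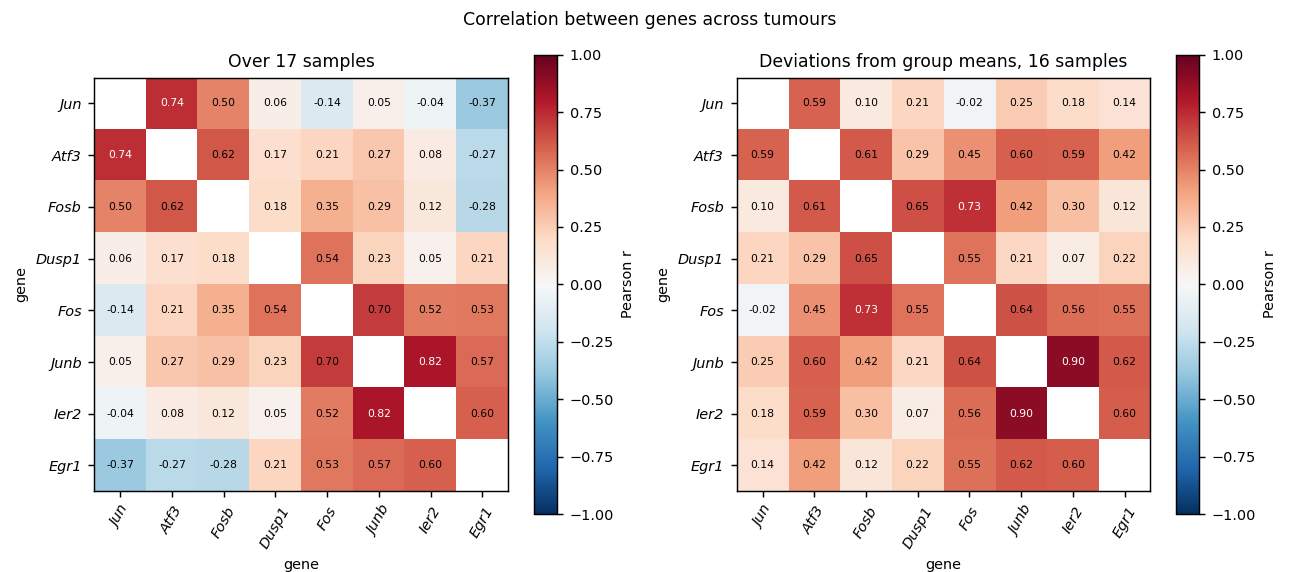
Pearson correlation between members over 17 samples (left) and over the deviations from group means of the 16 samples that share a group (right). On the left Junb and Ier2 (0.82) and Jun and Atf3 (0.74) are the highest pairs, and Jun and Egr1 (-0.37) the lowest.

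Most pairs of members varied in the same direction across tumours. Of 28 pairs 23 had a Pearson r above 0 over the 17 samples, with a median of 0.22, and 4 pairs had an adjusted p under 0.05 in permutation tests (100000 permutations, adjusted over the 28 pairs). The share of such pairs among all genes was not computed, so these counts are not shown to be particular to the members. On deviations from group means 27 of 28 pairs were above 0, with a median of 0.44, and 9 passed. Those permutations shuffled the deviations as if independent, although they sum to 0 within each group. Their p-values are therefore too low, and the 9 cannot be set against the 4. Junb and Ier2 had the highest correlation (r = 0.82, permutation p = 0.00011, adjusted p = 0.00308, Spearman rho = 0.82, permutation p = 0.00013). Their r was 0.75 without the 2 samples farthest from the median of Junb, and 0.90 on deviations from group means. Both genes lie near each other on chromosome 8, starting at 84976909 and 84661331. Its 955 tested genes had a median difference of -0.08 with parity in WT mice. The part of their location in the correlation was not tested. Fos and Junb were also correlated (r = 0.70, permutation p = 0.0022, adjusted p = 0.0195; rho = 0.78, permutation p = 0.00037), with 0.69 without the 2 farthest samples and 0.64 on deviations.

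Jun and Atf3 were correlated too (r = 0.74, permutation p = 0.00082, adjusted p = 0.0115; rho = 0.72, permutation p = 0.00164). Without the 2 samples farthest from the median of Jun r was 0.72, and on deviations from group means it was 0.59 (adjusted p = 0.0571), which missed the threshold. Fosb and Atf3 stood at r = 0.62 (permutation p = 0.00278, adjusted p = 0.0195; rho = 0.63, permutation p = 0.00831), with 0.57 without the 2 farthest samples and 0.61 on deviations. Jun and Fos showed r = -0.14 (permutation p = 0.577; rho = -0.11, permutation p = 0.687) and Jun and Egr1 r = -0.37 (permutation p = 0.142; rho = -0.39, permutation p = 0.12). Neither of these pairs passed, and on deviations from group means they stood at -0.02 and 0.14, so the negative value of Jun and Egr1 was not seen within groups. Among the 9 pairs under the threshold on deviations were Fos and Fosb (r = 0.73), whose r over all samples was 0.35. Their adjusted permutation p of 0.0246 is too low for the reason given above, so it is not read as a pass.

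**Figure D5:**
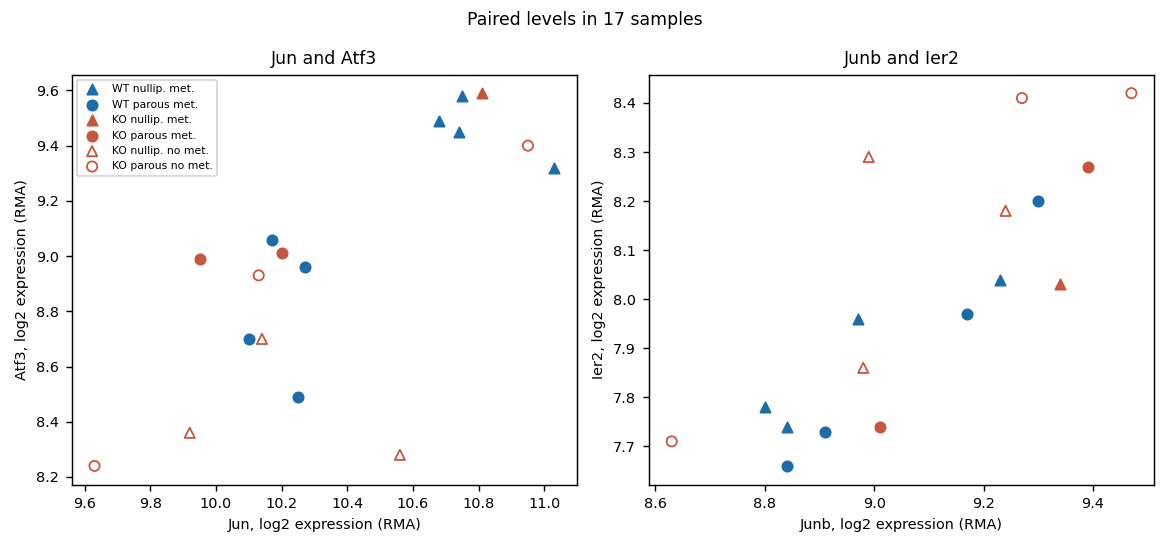
Levels of Jun against Atf3 (left) and of Junb against Ier2 (right) in 17 samples; both axes are log2 expression (RMA), blue is WT, red KO, triangles nulliparous, circles parous, and open symbols mice without metastasis. The WT nulliparous tumours lie in the upper right of the left panel, with Jun from 10.68 to 11.03 and Atf3 from 9.32 to 9.58, beside the lone KO nulliparous tumour with metastasis (10.81 and 9.59) and parous KO replicate 2 without it (10.95 and 9.40); the WT nulliparous tumours spread from 8.80 to 9.23 in Junb in the right panel.

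Of 115 other genes of the pathway and of stress responses, in 7 lists, 2 (1.74%) passed in the comparison of parity in WT mice, near the 2.40% of all genes. Nab2, a corepressor that binds Egr1 and is itself an Egr target, rose in parous mice. It stood at 9.70, 10.24, 9.89 and 9.89 in nulliparous and at 10.68, 10.88, 10.92 and 11.21 in parous WT tumours, with no overlap. The log2 difference was 0.99 (SE 0.18, limma adjusted p = 0.0177). Dusp7, a phosphatase of ERK kinases, fell from 12.43, 12.25, 12.19 and 12.25 to 11.60, 11.77, 11.56 and 11.52, also with no overlap. Its difference was -0.67 (SE 0.11, limma adjusted p = 0.0162). Both calls ended without WT parous replicate 3 (adjusted p 0.0556 for Nab2 and 0.0546 for Dusp7) or replicate 4 (0.0609 and 0.0556), or without WT nulliparous replicate 1 (0.0637 and 0.057) or replicate 4 (0.0636 and 0.0551), while the differences stayed between 0.90 and 1.10 for Nab2 and between -0.72 and -0.62 for Dusp7. In KO mice without metastasis Nab2 differed by 0.20 and Dusp7 by 0.06 with parity, and the difference between KO and WT did not pass (limma adjusted p = 0.395 for Nab2 and 0.277 for Dusp7).

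By list, of 28 other immediate early effectors and feedback genes 1 (Nab2) rose and 0 fell, with a median difference of 0.04. Of 10 dual specificity phosphatases 1 (Dusp7) fell and 0 rose, with a median of -0.10. Of 10 further AP-1 relatives, 19 other immediate early factors such as the Egr and Nr4a families, and 20 inducing kinases and serum response factors, 0 passed in either direction, with medians of -0.05, -0.05 and -0.04. Of 13 heat shock genes and 15 genes of the integrated and unfolded protein stress responses 0 passed, with medians of 0.05 and 0.07. The median over all genes was -0.01. In the other comparisons 0 genes of these lists passed, as 0% of all genes did.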

How the data were processed

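Total RNA of 18 tumours was extracted with Trizol, biotinylated and hybridised to 1 whole-transcript array each, per the labels. The authors deposited log2 expression values of 35556 probe sets, made with RMA and the oligo package per the submitters' processing notes; no versions are given there. RMA normalizes arrays by quantiles, which removes a shift shared by all genes, and compresses dim values. Array medians lay between 7.60 and 7.67. Arrays carry no read depth; their number limits the precision.

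Probe sets with 1 gene in the platform annotation (21789) were kept, 1621 with several and 12146 with none were left out, and each gene was read from its brightest probe set by mean. Of 19938 genes 19855 matched RefSeq by Entrez identifier. The near-identical arrays were averaged. Differences were tested with limma 3.58.1 in R 4.3.3 (6 group means, or genotype, parity and metastasis together; 2-sided, Benjamini-Hochberg over all genes, threshold 0.05). On data simulated for the WT parity comparison of 19938 genes, 84% of genes changed by 1 log2 unit and 97% of those changed by 2 were recovered, with 6 false calls. The simulated noise was normal, independent between genes and equal in spread across groups, unlike the data. These shares cover all genes and are no estimate for the members. The log2 of a list's summed level adds its members' linear values. Promoter windows come from RefSeq, GRCm38.p6, and the genes and gene lists were chosen with earlier results of these data known. All members are named, as are the 10 genes most like the members' mean. Of the other lists those that passed are named, and some of the 4 with the widest range. The chromosome and neighbouring genes of members were looked at after the data were seen. Alternatives are given in the closing section.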

Additional observations from a re-analysis of the deposited data

Results flagged for a closer look

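Fos in WT parous mice with metastasis had a tumour far from the others of its group: replicate 1 stood at 7.73, against 8.40 to 8.47 in the other 3, a gap of 0.908 of the range of the group, above the limit of 0.829 for 4 samples. Chance gives such a gap in about 1 in 20 groups. In the same tumour Ier2 (7.66) was the lowest of all samples, and 1 of 8 members was above its median over all tumours.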

How the results depend on the processing

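For parity in WT mice 0 of 8 members passed; 2 did with the groups of the contrast alone, 3 with array weights, and 0 to 2 with a sample left out. The genes called there numbered 478 and became 878 with those groups alone, 1718 with array weights, 126 with the replicate number as a block, and 57 to 770 with a sample left out: 770 without KO parous replicate 2 lacking metastasis, and 57 to 85 without WT nulliparous replicate 1 (66) or 4 (57) or WT parous replicate 3 (82) or 4 (85), and 259 and 274 without WT parous replicates 1 and 2. Quantile normalization again moved the split from 108 higher and 370 lower to 152 and 276. In the fit of 3 factors, parity called 0 members and 0 genes, 1 member and 781 genes with array weights, 55 genes with all 18 arrays apart, and 0 to 1 members and 0 to 369 genes with a sample left out (369 without KO nulliparous replicate 2 and 337 without KO parous replicate 2, both lacking metastasis). Metastasis in that fit called 0 genes, 2 with arrays apart and 0 to 1 with a sample left out. Leaving out a sample gave 0 to 2 genes for parity in KO mice, 0 to 17 for genotype and 0 to 5 for metastasis among parous mice, and 0 to 8 for the difference of the parity contrasts, with 0 members called in each; the causes were not tested. Pairs of members that passed rose from 4 to 9 on deviations from group means. The permutations there ignored that deviations sum to 0 within each group, so the rise is no evidence of closer variation within groups. Jun in KO mice with parity turned to -0.41 with array weights, and ran from -0.33 to 0.33 with a sample left out; Fosb ran from -0.04 to 0.24. In WT mice Ier2 ran from -0.09 to 0.09 and Dusp1 from -0.07 to 0.40, so neither has a direction. In WT mice with a sample left out Jun ran from -0.64 to -0.52, Atf3 from -0.74 to -0.55 and Fosb from -0.54 to -0.37. Their WT groups do not overlap, so leaving out a sample could not turn their direction, and the kept direction is no test. Replicate numbers did not pair the samples: over 23 pairs of the same number the median correlation of deviations was -0.02, against 0.06 over 64 others. Signal over background is not given in the table, so a limit of detection could not be set.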

Other observations

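Outside the 8 members, the genes whose levels were most like the mean of the members over the 17 samples were Mir27a (Pearson r = 0.82), the cytokine feedback inhibitor Socs3 (0.81), the BMP signal transducer Smad1 (0.79), Fez2 (0.79) and Msr1 (0.77), a scavenger receptor of macrophages. Shc1 (0.77), an adaptor between receptor kinases and Ras, Prdm1 (0.76), Map6 (0.76), Msn (0.76), which links the cell membrane to actin, and Dpep2 (0.75) followed. They are the 10 highest of all genes, so these values describe the choice and carry no test. Of them Mir27a, Smad1, Msr1 and Dpep2 lie on chromosome 8, as do the members Junb and Ier2. That chromosome carries 955 of the 19938 genes tested, and its part in these values was not tested.

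Several immediate early genes outside the members varied more widely between tumours than any member. Ptgs2, the inducible cyclooxygenase, ran from 6.81 in parous KO replicate 3 to 10.97 in parous KO replicate 2, both without metastasis. In these tumours 1 and 8 of 8 members were above their median. The EGF family ligand gene Hbegf was also highest in the latter, at 10.16. The kinase gene Sik1 ran from 9.66 in KO nulliparous replicate 3 without metastasis to 12.73 in parous KO replicate 1 with metastasis. The same parous tumour had the highest Sgk1 (11.49), Cebpd (9.51), Bhlhe40 (11.81), Maff (8.93), Fosl2 (11.41), Ddit4 (11.35) and Egr1 (10.15), with Fosb at 7.47. It also had the lowest Nr4a2 (8.35), Batf2 (7.19) and Elk3 (9.31), so these lists did not move as 1 there. WT nulliparous replicate 4 had the lowest Sgk1 (9.16), Cebpd (7.35), Maff (7.46), Fosl2 (10.03), Ddit4 (8.94) and Egr1 (8.02), but the highest Dusp8 (10.72). These genes were picked for their wide range within the fixed lists, and no test was made of them.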
